A study of Mus musculus with 7 samples.

Results

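The clustered histone genes are the many small genes, packed into a few gene clusters, that encode the histones made while DNA is copied. All symbols of the form H2ac, H2bc, H3c or H4c followed by a number, and H1f1 to H1f5, were taken from the expression table. They gave 64 of the 28233 genes listed: 5 of type H1, 17 of type H2A, 17 of type H2B, 12 of type H3 and 13 of type H4, of which H2ac5-ps and H2bc26-ps carry the symbol of a pseudogene. The family was chosen by measured values: H2bc11 and H2bc18 had been seen among the lowest-ranked genes of the comparison described here. The differences between groups below therefore describe the family and do not test it.

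B16mhgp100 cells, derived from the B16 mouse melanoma, had been implanted under the skin of C57BL/6 mice, and RNA was measured in 7 such tumours. Cr1l, a membrane protein that restrains complement, was over-expressed in 4 of them (Cr1l 1 to Cr1l 4), and the other 3 (Vec 5 to Vec 7) carried the vector. Every mouse in both groups had received an antibody against PD-1, at 200 µg a dose for 4 doses, the first on day 10 after the cells were injected, with harvest 1 day after the final dose. No tumour without the antibody was analysed here, and the labels do not state the vector's promoter, the number of cell clones or the age of the mice. Each tumour is a separate sample of its group, and all are whole tumours, so fewer cells of a type and less RNA per cell cannot be told apart.

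Nucleosomes wrap DNA around pairs of H2A, H2B, H3 and H4, and H1 binds the linker DNA between them. The clustered genes supply these proteins in S phase, and most of their messenger RNAs end in a conserved stem-loop, bound by the protein SLBP, in place of a poly(A) tail. A few members are also known to make polyadenylated messages, H1f2, H2bc4 and H2bc21 among them. The libraries here were selected with poly-T beads, so the values are levels of those histone RNAs that the selection captured, in TPM (transcript abundance scaled for gene length and library).

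Cr1l itself was listed at 76.4, 78.6, 77.9 and 83.6 TPM in Cr1l 1 to Cr1l 4 and at 52.4, 46.3 and 54.9 TPM in Vec 5 to Vec 7, so the 4 tumours labelled Cr1l were the highest. The 7 melanoma markers (Pmel, Mlana, Tyr, Dct, Tyrp1, Mitf and Sox10) were above 0 in every tumour. Their summed level was lowest in Cr1l 3 and Cr1l 4 (8872 and 10162 TPM) and ran from 12899 to 20010 TPM in the other tumours. The 7 macrophage markers summed to 3348 and 2847 TPM in Cr1l 3 and Cr1l 4 and to between 343 and 1033 TPM elsewhere. Globin transcripts took 4.14% of the TPM in Vec 6, 0.973% in Vec 7 and at most 0.0417% in the other tumours.

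The sequences just upstream of 4 members are shown because H3c13, H2bc18 and H2bc11 had the largest differences between groups of all 64, and H4c9 had the smallest difference among the members tested. They are RefSeq sequences of build GRCm38.p6 and not of the build used for the expression values, read 5′ to 3′ on the gene's strand over the 100 bases before the gene start, with CCAAT (or ATTGG, its reverse complement) and the octamer ATTTGCAT in capitals. H3c13 lies at chr3:96268554-96268653 (plus strand), H2bc18 at chr3:96269600-96269699 (plus strand), H2bc11 at chr13:22043098-22043197 (plus strand) and H4c9 at chr13:22041363-22041462 (minus strand).
H3c13: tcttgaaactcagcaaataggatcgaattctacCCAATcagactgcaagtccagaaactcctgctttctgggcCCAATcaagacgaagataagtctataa
H2bc18: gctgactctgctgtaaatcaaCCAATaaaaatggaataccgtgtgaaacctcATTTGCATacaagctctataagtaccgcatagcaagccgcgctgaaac
H2bc11: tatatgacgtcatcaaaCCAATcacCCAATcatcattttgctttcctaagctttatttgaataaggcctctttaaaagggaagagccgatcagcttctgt
H4c9: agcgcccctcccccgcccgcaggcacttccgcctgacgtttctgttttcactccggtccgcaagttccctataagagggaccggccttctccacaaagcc
H3c13, H2bc18 and H2bc11 hold CCAAT in this window and H4c9 does not. H2bc18 alone of the 4 holds the exact octamer, the element bound by OCT1 in H2B promoters, at position -48 from the gene start.

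The clustered histone genes together made up a small share of the RNA measured. Their summed level was 129, 130, 218 and 218 TPM in Cr1l 1 to Cr1l 4 and 246, 412 and 268 TPM in Vec 5 to Vec 7. Cr1l 1 and Cr1l 2 were lowest, Vec 6 was highest, and every Cr1l tumour lay below every Vec tumour. The Cr1l mean was 174 ± 51.1 TPM (SD, n = 4), against a Vec mean of 309 ± 90.4 TPM (SD, n = 3), which was 1.78 times as high. Without H3c13, H2bc11 and H2bc18, the other 61 members had a ratio of 1.6 and the groups overlapped. Those 61 summed to 214 and 217 TPM in Cr1l 3 and Cr1l 4 and to 212 TPM in Vec 5. As a share of all TPM, the family took between 0.0130% and 0.0219% in the Cr1l tumours and between 0.0247% and 0.0414% in the Vec tumours. Between 20 and 24 members reached 1 TPM in the Cr1l tumours, and between 31 and 39 did in the Vec tumours.

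Other cells' markers also differed within and between the groups. The 6 fibroblast markers summed to 5889 and 4724 TPM in Cr1l 3 and Cr1l 4 and to between 134 and 1132 TPM elsewhere. The 6 B and plasma cell markers summed to 22.3, 11.1, 90.2 and 26.4 TPM in Cr1l 1 to Cr1l 4 and to 3.14, 2.24 and 2.7 TPM in Vec 5 to Vec 7, so they separated the groups as the histone sum did, in the other direction. Cr1l 3 and Cr1l 4, with the high macrophage and fibroblast and low melanoma markers, had the higher histone sums of their group. Without the 5 members of highest level, however, Cr1l 4 had the lowest sum of its group (43.5 TPM). With Cr1l 3 and Cr1l 4 both left out, the log2 ratio of the family's summed levels was -1.25, against -0.83 over all 7 tumours. Vec 6, the tumour with the most globin, also summed to 840 TPM for 4 keratinocyte markers, against between 0.41 and 47.3 TPM in the other tumours. It had the highest sum for each of the 5 histone types. Without Vec 6 the log2 ratio was -0.56, and the part of these other cells in the histone levels was not tested.

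**Figure D1:**
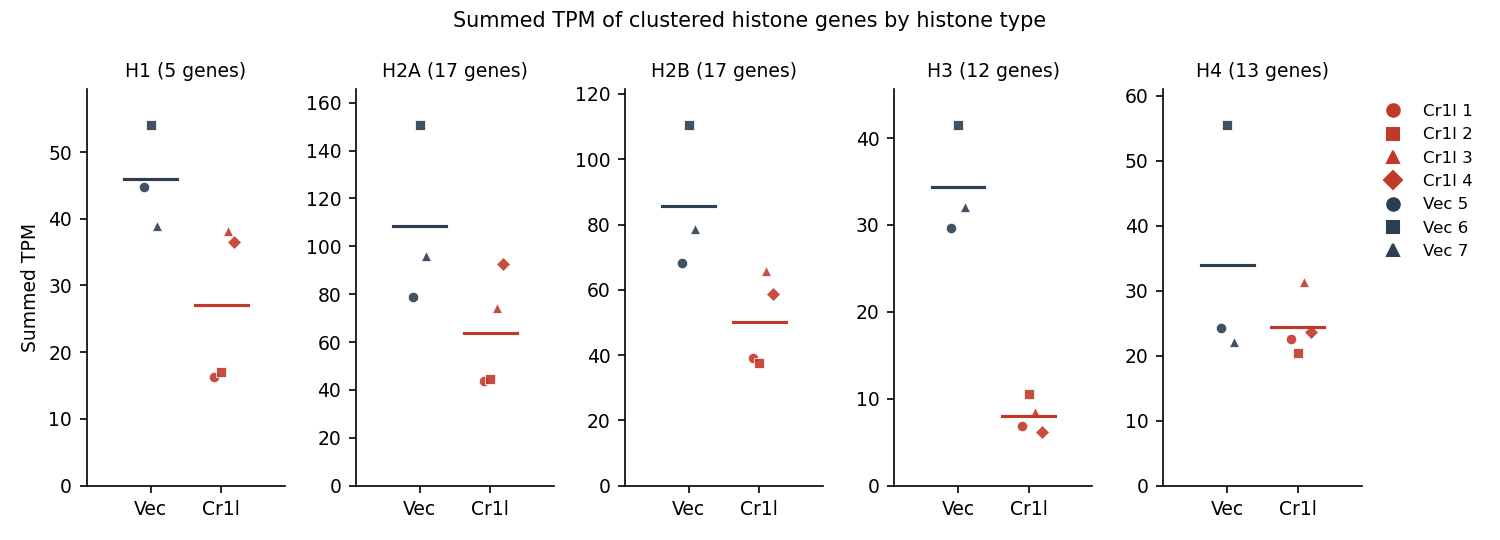
Summed TPM (vertical axes, from 0, each with its own scale) of the clustered genes of each histone type in the 3 Vec and 4 Cr1l tumours. Points are tumours and bars are group means; the H3 sums of the Cr1l tumours (6.20 to 10.5 TPM) lie far below those of the Vec tumours (29.6 to 41.5 TPM), and the H4 sums overlap.

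By type, the ratio of Vec to Cr1l means was 1.70 for H1, 1.70 for H2A, 1.71 for H2B, 4.30 for H3 and 1.39 for H4, as the plot of sums by histone type shows. Without Cr1l 3 and Cr1l 4 the log2 ratios (Cr1l over Vec) moved from -0.76 to -1.46 for H1, from -0.76 to -1.29 for H2A and from -0.77 to -1.16 for H2B. Without Vec 6 the H2A log2 ratio was -0.45. The 12 H3 genes summed to 6.87, 10.5, 8.42 and 6.20 TPM in Cr1l 1 to Cr1l 4 and to 29.6, 41.5 and 32.0 TPM in Vec 5 to Vec 7. The 13 H4 genes summed to 22.5, 20.5, 31.3 and 23.6 TPM and to 24.3, 55.5 and 22.1 TPM. The H3 groups were far apart, while the H4 groups overlapped and differed in mean through Vec 6 alone. Without Vec 6 the H4 log2 ratio was 0.08, against -0.47 over all 7 tumours. The H2A groups overlapped as well, since Cr1l 4 reached 92.6 TPM and Vec 5 had 78.7 TPM. H1 (16.3 to 38.2 TPM in Cr1l, 39.0 to 54.0 TPM in Vec) and H2B (37.4 to 65.7 TPM in Cr1l, 68.4 to 110 TPM in Vec) did not overlap, by small margins.

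Over the 64 members, 47 had a lower mean of log2(TPM + 1) in the Cr1l tumours and 17 a higher one. The median difference, Cr1l minus Vec on that scale, was -0.43 for the members and 0.03 for all genes listed. In all, 73.4% of members and 42.9% of all genes were on the lower side. The members at 0 in all tumours of 1 group number 10 (4 in the Cr1l tumours, 6 in the Vec tumours), and they enter the median at a value that depends on the added 1. In 14 members, or 21.9%, every Cr1l tumour lay below every Vec tumour, beside 4.69% of all genes listed, and in 0 members every Cr1l tumour lay above, beside 6.69% of all genes. These shares come from the contrast that chose the family and are given as a description.

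Of the 64, 30 averaged 1 TPM or more across the tumours and entered the fit over 14954 genes with limma, a linear model with moderated variances. On log2(TPM + 1), 25 of these 30 were lower and 5 higher in the Cr1l tumours. This count is tilted by the filter, since 8 of the 30 had a Cr1l mean below 1 TPM and entered through the Vec tumours, whereas 1 had a Vec mean below 1 TPM. At a Benjamini-Hochberg adjusted p of 0.05, limma called 0 of the 30 lower, beside 0.0134% of all genes tested, and 0 higher. At an unadjusted p of 0.05, 10 of the 30 were lower, beside 6.07% of all genes tested, and 0 higher. The filter tilts this count too, and it includes H2bc11 and H2bc18, which led to the choice of the family. In the authors' deposited table of their own count-based comparison, 57 members could be found and 34 had an adjusted p. Of those 34, the authors' deposited table puts 6 below 0.05 as lower in Cr1l tumours, or 17.6%, beside 2.27% of all its genes, and 0 as higher. H2bc11 and H2bc18 are among these 6 as well. The authors' deposited table has a negative log2 fold change for 46 of the 57 and a positive one for 11, with a median of -1.21.

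**Figure D2:**
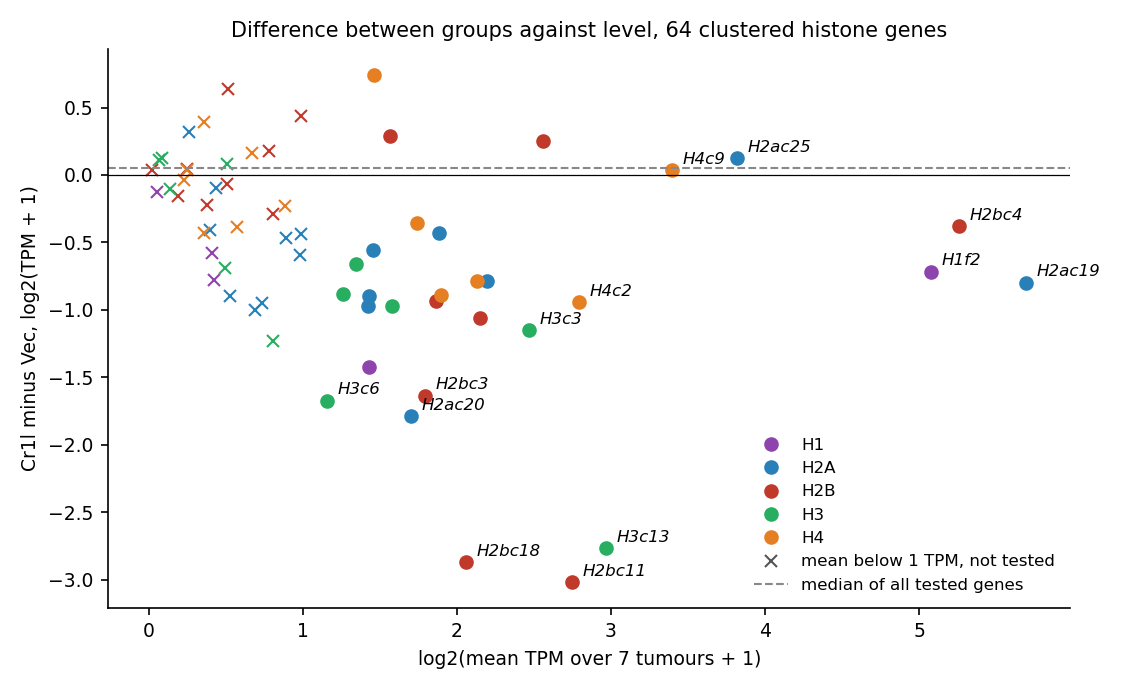
Difference between group means (Cr1l minus Vec, log2(TPM + 1), vertical axis) against log2(mean TPM over the 7 tumours + 1) (horizontal axis) for the 64 members, coloured by histone type. Crosses are members with a mean below 1 TPM, which were not tested; H2bc11, H3c13 and H2bc18 lie lowest (-3.02, -2.77 and -2.87), and the dashed line is the median of all tested genes (0.05).

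A few members held most of the signal. The 5 with the highest mean level, H2ac19, H2bc4, H1f2, H2ac25 and H4c9, made up between 61.4% and 80.0% of the family's TPM in the Cr1l tumours and between 53.4% and 61.9% in the Vec tumours. None of these 5 had groups that did not overlap, and their sum was 1.41 times as high in the Vec tumours. The other 59 members summed to 45.6, 50.2, 68.1 and 43.5 TPM in Cr1l 1 to Cr1l 4 and to 115, 192 and 102 TPM in Vec 5 to Vec 7, a ratio of 2.63. In the plot of difference against level, the members with the largest differences (H2bc11, H3c13 and H2bc18) lie at intermediate levels, with means of 3.18 to 6.82 TPM over the 7 tumours.

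The linker histone genes were led by H1f2, which encodes histone H1.2. Its level was 15.8, 16.6, 37.7 and 35.9 TPM in Cr1l 1 to Cr1l 4 and 42.3, 45.1 and 35.9 TPM in Vec 5 to Vec 7. Cr1l 3 and Cr1l 4 stood beside the Vec tumours and the other 2 Cr1l tumours well below them. H1f4, which encodes H1.4, was low in all Cr1l tumours: it read 0.39, 0.46, 0.45 and 0.58 TPM there and 1.72, 6.05 and 2.17 TPM in Vec 5 to Vec 7. The groups did not overlap, and the difference was -1.42 (SE 0.37) on the log2(TPM + 1) scale. The authors' deposited table gives H1f4 a log2 fold change of -2.96 with a DESeq2 adjusted p of 2.67e-04. H1f3, which encodes H1.3, was at 0.04 to 0.13 TPM in the Cr1l tumours and 0.35 to 1.15 TPM in the Vec tumours, and the authors' deposited table gives it -3.08 with a DESeq2 adjusted p of 6.37e-04. H1f5, the gene of H1.5, had no value above 0 in the Cr1l group, while Vec 5 to Vec 7 read 0.35, 1.59 and 0.44 TPM. H1f1, the gene of H1.1, was above 0 in Vec 6 and Vec 7 alone, at no more than 0.15 TPM.

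Among the H2A genes, H2ac19 had the highest level of all 64 members. It read 24.7, 21.1, 43.9 and 65.1 TPM in Cr1l 1 to Cr1l 4 and 40.6, 107 and 53.9 TPM in Vec 5 to Vec 7. Both groups ranged widely and overlapped. H2ac25, next in level, read 11.3, 10.5, 14.6 and 18.1 TPM and 9.16, 12.3 and 15.8 TPM, with overlapping groups and a difference of 0.12 (SE 0.25). H2ac20 read 0.28, 0.36, 1.86 and 0 TPM in the Cr1l tumours and 3.49, 7.03 and 2.81 TPM in the Vec tumours. It was low in every Cr1l tumour and its groups did not overlap, with a difference of -1.79 (SE 0.44), the largest among the tested H2A genes. H2ac11 (1.67 to 4.44 TPM in Cr1l, 3.07 to 6.33 TPM in Vec) and H2ac8 (1.02 to 3.02 TPM and 2.55 to 4.59 TPM) overlapped between groups. H2ac10 overlapped too, at 0 to 2.20 TPM and 1.92 to 3.15 TPM. H2ac18 was listed at 0 in Cr1l 1, Cr1l 3 and Vec 6 and at 0.87 to 4.83 TPM in the other tumours. Of the 17 H2A genes, 15 had a lower mean in the Cr1l tumours, and H2ac20, H2ac15 and H2ac6 were those without overlap.

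The H2B genes held the 2 members with the largest differences of the family and also 2 tested members on the higher side. H2bc4, the H2B gene with the highest level, read 21.3, 23.4, 44.4 and 44.3 TPM in Cr1l 1 to Cr1l 4 and 29.3, 46.7 and 51.3 TPM in Vec 5 to Vec 7. Its groups overlapped, with Cr1l 3 and Cr1l 4 again above the other 2 Cr1l tumours. H2bc21, also known to make a polyadenylated message, read 7.20, 6.94, 3.43 and 4.03 TPM and 3.95, 3.69 and 5.00 TPM. Here Cr1l 1 and Cr1l 2 were the highest tumours of all, the opposite order within the Cr1l group, and the groups overlapped with a difference of 0.25 (SE 0.28). H2bc15, the other tested H2B gene on the higher side, ranged from 0.64 to 4.33 TPM in the Cr1l tumours and from 0 to 4.66 TPM in the Vec tumours.

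H2bc11 was listed at 0, 0.47, 1.52 and 0.82 TPM in Cr1l 1 to Cr1l 4 and at 10.1, 16.6 and 10.4 TPM in Vec 5 to Vec 7. All 4 Cr1l tumours lay far below the lowest Vec tumour, and the difference was -3.02 (SE 0.36). H2bc18 read 0.29, 0, 0 and 0 TPM in Cr1l 1 to Cr1l 4 against 9.83, 8.5 and 3.61 TPM in Vec 5 to Vec 7. Only Cr1l 1 of the 4 Cr1l tumours had a value above 0, and the difference was -2.87 (SE 0.36). H2bc3 read 0.89, 0.37, 0.24 and 1.29 TPM in the Cr1l tumours and 3.29, 9.11 and 2.09 TPM in the Vec tumours, again without overlap, at -1.64 (SE 0.45). H2bc8 (0.97 to 2.61 TPM in Cr1l, 2.33 to 8.0 TPM in Vec) overlapped. The authors' deposited table gives H2bc11 a log2 fold change of -4.16 with a DESeq2 adjusted p of 3.21e-04, on a mean normalised count of 15.4. It gives H2bc18 -6.00 with a DESeq2 adjusted p of 0.00807, on a mean normalised count of 4.88, so few reads lie behind that value in the authors' deposited table. Without H2bc11 and H2bc18, the other 15 H2B genes summed to 37.0 to 64.2 TPM in the Cr1l tumours and 48.4 to 85.4 TPM in the Vec tumours, a ratio of 1.34 with overlap.

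**Figure D3:**
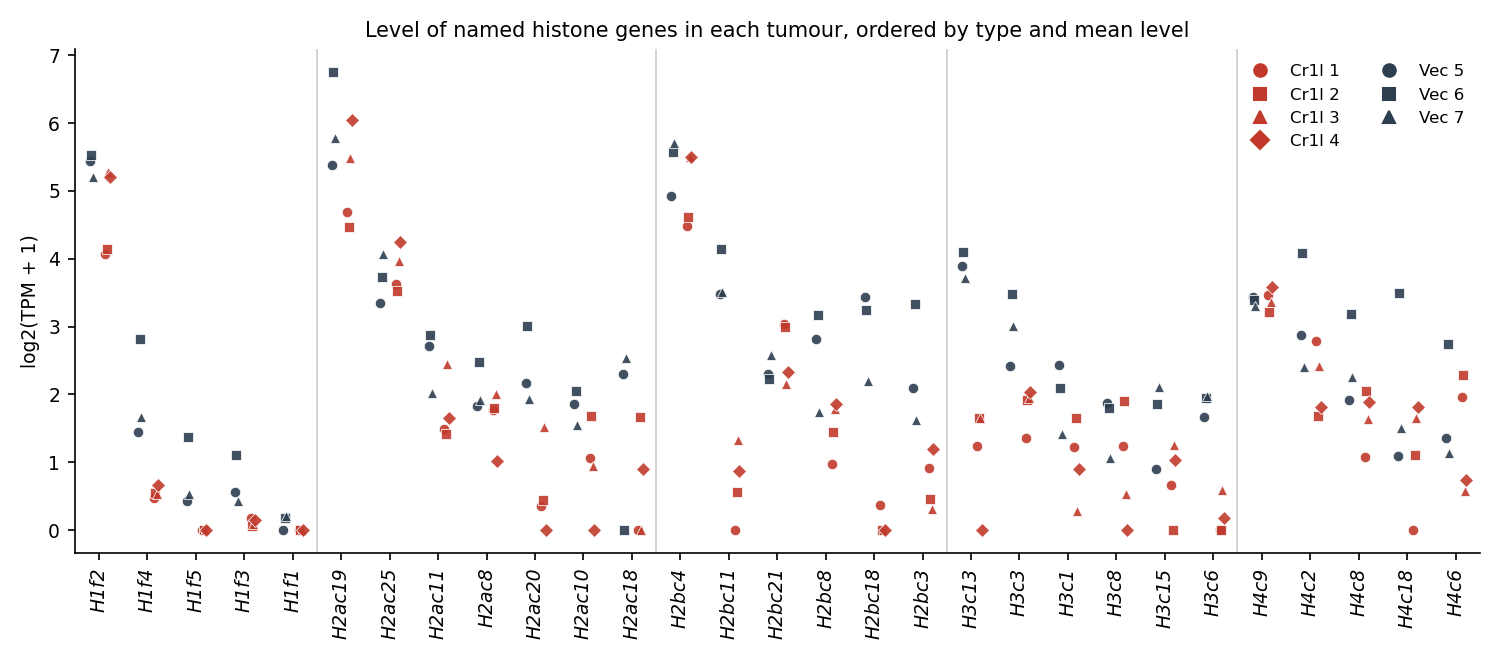
Level, as log2(TPM + 1) on the vertical axis, of 29 members in each of the 7 tumours, ordered by histone type (grey lines) and by mean level within the type. H2bc11, H2bc18, H3c13 and H3c6 show the 4 Cr1l tumours well below the 3 Vec tumours, and H4c9 shows all 7 tumours together.

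The H3 genes had the largest ratio of sums. Of the 12, 9 had a lower mean in the Cr1l tumours, among them all 6 tested, and H3c4, H3c10 and H3c2, each below 1 TPM in every tumour, had a higher one. H3c13 read 1.37, 2.14, 2.14 and 0 TPM in Cr1l 1 to Cr1l 4 and 13.8, 16.1 and 12.2 TPM in Vec 5 to Vec 7. The Vec tumours lay close together and far above every Cr1l tumour, at a difference of -2.77 (SE 0.42). The authors' deposited table gives H3c13 a log2 fold change of -3.42 with a DESeq2 adjusted p of 2.92e-04. H3c6 read 0, 0, 0.5 and 0.13 TPM in Cr1l 1 to Cr1l 4 against 2.17, 2.87 and 2.92 TPM in Vec 5 to Vec 7. Its groups did not overlap, with a difference of -1.67 (SE 0.30) and, in the authors' deposited table, -4.01 with a DESeq2 adjusted p of 0.00949. H3c3 read 1.55, 2.79, 2.86 and 3.11 TPM and 4.32, 10.1 and 7.04 TPM, also without overlap, at -1.15 (SE 0.31). H3c1, H3c8 and H3c15 overlapped between groups, with differences of -0.97, -0.66 and -0.89. Without H3c13, the other 11 H3 genes summed to 5.50, 8.35, 6.28 and 6.20 TPM in Cr1l 1 to Cr1l 4 and to 15.8, 25.4 and 19.8 TPM in Vec 5 to Vec 7. These groups still lay apart, at a ratio of 3.09.

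The H4 genes had the smallest ratio of sums, though over all members of a type the H2B median (-0.16) was nearer 0 than the H4 median (-0.23). H4c9 read 10.1, 8.32, 9.32 and 10.97 TPM in Cr1l 1 to Cr1l 4 and 9.79, 9.44 and 8.84 TPM in Vec 5 to Vec 7. All 7 tumours lay within a narrow range, and the difference was 0.04 (SE 0.16). H4c2 read 5.90, 2.20, 4.36 and 2.53 TPM and 6.31, 16.01 and 4.29 TPM, with Vec 6 standing alone above the rest. H4c8 (1.11 to 3.16 TPM in Cr1l, 2.79 to 8.05 TPM in Vec), H4c18 (0 to 2.53 TPM and 1.14 to 10.3 TPM) and H4c6 (0.49 to 3.86 TPM and 1.20 to 5.71 TPM) each had their highest value in Vec 6 and overlapped. H4c12, the tested member with the largest difference on the higher side (0.74, SE 0.85), had its highest value in Cr1l 3, at 9.12 TPM, while 4 of the 7 tumours were listed at 0. H4c14 was the H4 gene without overlap, at 0 to 0.21 TPM and 0.30 to 0.81 TPM.

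Near-identical copies can share reads, so the split of a level between members is uncertain. In GENCODE M21 transcripts, 57 members could be cut into windows of 100 bases, and the median member had 38.5% of its windows in common, on either strand, with another gene. In 25 members over 50% of windows were shared, in 5 all were (H2ac18, H2ac19, H2bc18, H3c13 and H3c14), and in 5 none was (H1f5, H1f1, H2bc21, H4c4 and H4c14). The 32 members with at most 50% shared had a ratio of Vec to Cr1l sums of 1.71 and a median difference of -0.43, with 12 members lacking overlap. The 25 members above 50% had a ratio of 2.11 and a median of -0.59, with 2 lacking overlap, H3c13 and H2bc18. By ratio and median both sets were lower in the Cr1l tumours. Lack of overlap with every Cr1l tumour lower, which held for 4.69% of all genes listed, lay mostly in the set with fewer shared windows.

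H3c13 and H2bc18, neighbours in that order on chromosome 3, both lie wholly within the antisense gene Gm20628, chosen to be named after its values were seen. The libraries do not keep strand, so reads of Gm20628 and of these 2 members cannot be told apart where they overlap. Gm20628 was listed at 0.14, 0, 0.06 and 0.03 TPM in Cr1l 1 to Cr1l 4 and at 0.36, 0.63 and 0.26 TPM in Vec 5 to Vec 7, lower in every Cr1l tumour like the 2 histone genes. H3c13 also shares 77.1% of its windows with H3c14. H2bc11 shares 40.1% with H2bc23, which was at no more than 0.85 TPM in any tumour. H2ac19 and H2ac18 share most or all of theirs with the predicted genes Gm20632 and Gm20633, which were at no more than 2.07 TPM, and with Gm20634, which also holds 77.1% of the windows of H3c13. Gm20634 lay the other way from the histone genes: it read 0.72, 1.23, 2.59 and 2.85 TPM in Cr1l 1 to Cr1l 4 and 0.44, 0.69 and 0 TPM in Vec 5 to Vec 7, with every Cr1l tumour above every Vec tumour.

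Position and gene structure were compared as descriptions. Of the members matched to an annotation, 49 lie on chromosome 13 and 10 on chromosome 3, and H2ac25, H2bc24, H2bc26-ps, H2bc27 and H4c16 were not matched. The median difference was -0.44 on chromosome 13 and -0.89 on chromosome 3, and the ratios of Vec to Cr1l sums were 1.74 and 2.17. The 10 on chromosome 3 include H3c13 and H2bc18, and H2ac19 held most of their TPM in every tumour. Members with a single exon in every transcript, the usual form of a clustered histone gene, numbered 53 and had a ratio of 2.03. The 4 with a transcript of more than 1 exon (H2bc4, H2bc6, H2bc23 and H2bc22) had a ratio of 1.29, nearly all of it from H2bc4. Among 47 pairs of adjacent members, both were lower in the Cr1l tumours in 27 and both higher in 2. As 73.4% of all members were lower, many pairs would be so without any link, and a link between neighbours was not tested. Among adjacent pairs with both strands known here, 9 point away from each other, and both members were lower in 7. H2ac11 and H2bc11 form such a pair, and their differences, -0.79 and -3.02, were of unlike size. The strand of some members was not known here, so pairs with them were not sorted. H2ac20 and H2bc21 are an unsorted pair, with differences of -1.79 and 0.25.

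Promoter letters were searched as exact matches over the 250 bases before the start of 53 matched members and of 27025 genes in the RefSeq table, on both strands. The octamer ATTTGCAT stood in 5 of 12 H2B genes and 5 of 15 H2A genes and in 0 of the H1, H3 and H4 genes, against 1.61% of all genes. CCAAT stood in all 5 H1, all 15 H2A and all 12 H2B genes, in 8 of 10 H3 genes and in 3 of 11 H4 genes, against 34.5% of all genes. TATAAA stood in 25 of the 53, or 47.2%, against 13% of all genes. H2bc18 holds the octamer and CCAAT, whereas H3c13 and H2bc11 hold CCAAT and not the exact octamer, as in the sequences above. The 3 members with the largest differences therefore do not share the exact octamer. H2bc11 holds the near form ATTTGAAT, and such near forms were not counted.

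Histone genes outside the clusters, including replacement variants whose messages carry poly(A) tails, were set beside the family. Of 12 on the list, 10 were tested: 0 passed the limma threshold in either direction, 9 were on the lower side and the median was -0.23. H3f3b, which encodes the replacement histone H3.3, read 614, 613, 492 and 491 TPM in Cr1l 1 to Cr1l 4 and 859, 1015 and 943 TPM in Vec 5 to Vec 7. The groups did not overlap, at -0.77 (SE 0.14), with a limma adjusted p of 0.112. The authors' deposited table gives H3f3b a log2 fold change of -0.84 with a DESeq2 adjusted p of 0.00107. H3f3a, the other H3.3 gene, ran from 638 to 819 TPM and from 883 to 982 TPM, at -0.30 (SE 0.13). H1f10, a linker histone gene outside the clusters, read 1.25, 1.79, 2.91 and 2.68 TPM and 7.24, 11.2 and 15.9 TPM, at -1.95 (SE 0.32) and a limma adjusted p of 0.1004. The authors' deposited table gives H1f10 -2.46 with a DESeq2 adjusted p of 3.36e-05. H2ax (-0.19), H2az1 (-0.16) and H1f0 (-0.38) overlapped between groups.

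**Figure D4:**
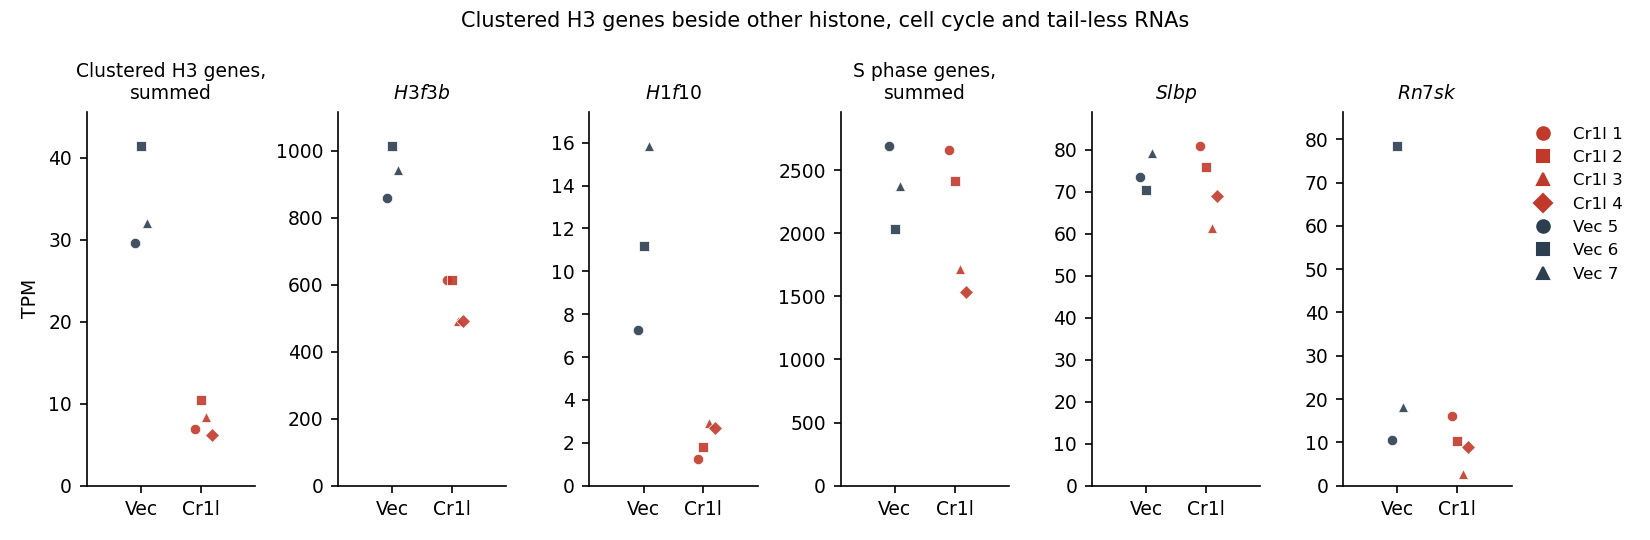
Level in TPM (vertical axes, from 0, each with its own scale) in the 3 Vec and 4 Cr1l tumours of the clustered H3 genes summed, H3f3b, H1f10, the S phase genes summed, Slbp and Rn7sk. Points are tumours; the first 3 panels have every Cr1l tumour below every Vec tumour, and the other 3 panels overlap.

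Genes of the machinery that makes histone messages lay on both sides. Of 24 listed genes for histone RNA processing and transcription, 22 were tested, 0 passed in either direction, 10 were on the higher and 12 on the lower side, and the median was -0.01. Slbp, which encodes the stem-loop binding protein, read 81.0, 75.9, 61.5 and 69.1 TPM in Cr1l 1 to Cr1l 4 and 73.5, 70.5 and 79.3 TPM in Vec 5 to Vec 7. The groups overlapped fully. Npat, the coactivator of the histone clusters, overlapped too, at 7.91 to 11.7 TPM and 9.04 to 14.0 TPM. Lsm10, part of the U7 particle that cuts the 3′ end of histone messages, ran from 26.0 to 34.4 TPM and from 21.2 to 22.3 TPM, without overlap and higher in the Cr1l tumours, at 0.39 (SE 0.14) and a limma adjusted p of 0.279.

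Of 19 histone chaperones, all tested, 0 passed, 13 were on the lower side and the median was -0.12. Asf1a, a chaperone of H3 and H4, read 43.3, 37.1, 34.9 and 36.0 TPM in the Cr1l tumours and 61.9, 78.3 and 73.6 TPM in the Vec tumours. It did not overlap, at -0.89 (SE 0.14) with a limma adjusted p of 0.0937, and the authors' deposited table gives it -0.99 with a DESeq2 adjusted p of 3.21e-04. Hjurp, the chaperone of the centromeric H3 variant, lay the other way, at 113 to 194 TPM and 78.4 to 100 TPM, with 0.77 (SE 0.19) and a limma adjusted p of 0.197. The authors' deposited table gives Hjurp 0.74 with a DESeq2 adjusted p of 0.0199.

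Among markers of cycling cells, the S phase genes encode the replication machinery. Of these 29 S phase genes 0 passed, 24 were on the lower side and the median was -0.19. Their summed level was 2658, 2411, 1714 and 1534 TPM in Cr1l 1 to Cr1l 4 and 2696, 2030 and 2374 TPM in Vec 5 to Vec 7. Cr1l 1 and Cr1l 2 had the high S phase sums of their group and the low histone sums, and the reverse held for Cr1l 3 and Cr1l 4. This order was that of the 5 highest members, at 83.3, 79.8, 150 and 174 TPM in Cr1l 1 to Cr1l 4. The other 59 did not keep it, at 45.6, 50.2, 68.1 and 43.5 TPM. Nor did the H3 sums, which were highest in Cr1l 2 and lowest in Cr1l 4. Cdt1, which licenses replication origins, ran from 23.8 to 43.7 TPM and from 59.2 to 70.9 TPM, at -0.97 (SE 0.21) with a limma adjusted p of 0.145. The authors' deposited table gives Cdt1 -1.02 with a DESeq2 adjusted p of 0.00113. Pcna, the sliding clamp, overlapped at 229 to 357 TPM and 303 to 362 TPM. Of 16 mitosis genes 0 passed, 10 were on the lower side and the median was -0.09, with Mki67 at 58.3 to 120 TPM and 80.6 to 95.5 TPM.

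RNAs that lack a poly(A) tail were listed as a gauge of what else passed the selection. Of 11 listed, 5 were found and 4 tested; 0 passed, all 4 were on the lower side and the median was -1.13, though Rn7s1 and Rn7s2 have identical values in every tumour and count as 1. Rn7sk, the RNA of the 7SK particle, read 16.1, 10.2, 2.81 and 8.91 TPM in Cr1l 1 to Cr1l 4 and 10.6, 78.6 and 18.1 TPM in Vec 5 to Vec 7. Vec 6 stood alone and the other tumours overlapped. Rpph1, the RNA of RNase P, read 3.76, 0, 0 and 1.5 TPM and 7.10, 3.92 and 12.2 TPM, without overlap, at -2.12 (SE 0.62) with a limma adjusted p of 0.227. Terc, the telomerase RNA, was not tested for its low level and lay the other way, at 0.63 to 2.22 TPM and 0 to 0.57 TPM. A further 20 genes of small nucleolar, Cajal body and spliceosomal RNAs were found by symbol, 15 of them at 0 in at least 4 tumours. Of 19 tested, 0 passed, 12 were on the lower and 7 on the higher side, and the median was -0.77. At an unadjusted limma p of 0.05, 5 of these 19 were lower and 0 higher, beside 6.07% of all genes tested that were lower. Of the 4 tested above, 1 was lower and 0 higher at that p. In 0 of the 19 did the groups lie apart, in either direction. Genes listed at 0 throughout 1 group entered the fit through the other, as Snord3a did through the Vec tumours and Snora17 through Cr1l 3. The count of 5 is therefore a description and no measure of a shift. Snord3a was listed at 0 in all tumours except Vec 6 (50.1 TPM) and Vec 7 (19.3 TPM). Snora73a lay the other way, at 15.5, 18.3, 0 and 48.9 TPM in Cr1l 1 to Cr1l 4 and 0, 0 and 7.11 TPM in Vec 5 to Vec 7, so these RNAs did not all lie on 1 side. The selection's efficiency was not measured, and its part in the histone levels was not tested.

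Of 20 listed genes for nuclear RNA decay and polyadenylation, 19 were tested and 0 passed, with 12 on the lower side and a median of -0.06. Papolg, a poly(A) polymerase, ran from 7.39 to 8.50 TPM in the Cr1l tumours and from 4.76 to 5.52 TPM in the Vec tumours, at 0.52 (SE 0.16) with a limma adjusted p of 0.238. Exosc9, a subunit of the RNA exosome, lay the other way, at 30.4 to 46.4 TPM and 50.1 to 58.4 TPM, at -0.48 (SE 0.16) with a limma adjusted p of 0.259.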

How the data were processed

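RNA of 7 tumours was measured, grouped by the labels (4 Cr1l, 3 Vec). An extra number in the titles of Vec 6 and Vec 7 is unexplained, so a setting left both out. The members and lists were chosen with earlier results of these data known. Poly-T beads picked out messenger RNA for libraries without strand information, per the labels' protocols. The build (mm39), RSEM and DESeq2 are named by the submitters' processing notes; the sources used here give no versions, aligner or annotation. The authors' deposited expression values are log2(TPM + 1) per gene; the logarithm was undone, and totals ran from 993520 to 996031 TPM. TPM keeps no depth, so depth and counting error are unknown. The authors' deposited DESeq2 table gives, per the file headers, a mean normalised count (a signal on the count scale), a log2 fold change and its SE, a test score, and p-values before and after adjustment; Cr1l was taken as numerator from the sign of Cr1l (0.57). Its Ensembl identifiers were joined to member symbols through RefSeq synonyms and GENCODE names.

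The 14954 genes averaging 1 TPM or more were fitted by limma 3.58.1 (R 4.3.3) to log2(TPM + 1), with group as the term. The fit used a variance trend, two-sided p-values and Benjamini-Hochberg adjustment over all 14954 genes. It was also run on simulated data, with changes placed in genes averaging 5 TPM or more and a capped spread. That run does not cover changes in members averaging below 5 TPM. A pseudocount of 1 understates changes of low genes. Figures used matplotlib 3.10.9. Values per tumour are given for up to 5 members of each type with the highest mean and up to 3 tested members with the largest difference, and per list for up to 3 genes with the smallest p and a fixed set; H2bc6, H2bc15, H2bc22, H2bc23, H3c2, H3c4, H3c10, H3c14, H4c4, H4c12, H4c14, H2ac15, H2ac6, Rn7s1, Rn7s2, Terc, Snora73a and the Gm genes lie outside that rule and were chosen after their values were seen. Repertoire values were not used here. Alternatives changed the pseudocount, the filter, scaling, globin and mitochondrial content, weights, the variance model and the tumours used.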

Additional observations from a re-analysis of the deposited data

Results flagged for a closer look

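Of 68 sets of 4 Cr1l tumours examined, 2 had a tumour far from the other 3, by the gap to the nearest tumour over the range of the group; chance does this in about 1 set in 20. H2bc18 was listed at 0.29 TPM in Cr1l 1 and at 0 in the other 3 Cr1l tumours. With 3 values at 0 the gap equals the range whatever the size of the other value, so that rate does not apply to H2bc18. Ncbp2, which encodes a subunit of the nuclear cap-binding complex, was at 62.1 TPM in Cr1l 1 and at 48.2 to 49.9 TPM in the other 3.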

How the results depend on the processing

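No paired analysis was possible because the tumours are numbered 1 to 7 across the groups and share no number. The log2 ratio of summed H3 levels stayed between -2.26 and -1.89 in the 11 settings that bear on summed levels, while H1 ran from -1.46 to -0.59, H2A from -1.29 to -0.30, H2B from -1.16 to -0.44 and H4 from -0.70 to 0.08, and between 39 and 50 members were lower in the Cr1l tumours in all 16 settings; leaving out Cr1l 3 and Cr1l 4 together was chosen after seeing the data. The family's log2 ratio, -0.83, was -1.25 without Cr1l 3 and Cr1l 4 and -0.97 to -0.56 with single tumours left out. The members' median, -0.43, was -0.92 at a pseudocount of 0.1 and -0.18 without Vec 6 and Vec 7, and -0.53 to -0.29 with single tumours left out. Members called lower by limma, 0, numbered 1 with tumour weights (H2bc11), 2 without a variance trend (H2bc11 and H2bc18), 2 without Cr1l 3 and Cr1l 4 (H2bc11 and H3c13) and 0 to 1 with single tumours left out (H3c13 without Cr1l 4, H2bc18 without Vec 7). Genes called lower, 2, numbered 0 with no filter, 1 at a mean of 5 TPM, 6 with median-of-ratios scaling, 8 with weights, 7 without a trend, 6 without Cr1l 3 and Cr1l 4 and 0 to 6 with single tumours left out. Genes called higher, 0, numbered 4 at a pseudocount of 0.1, 4 with median-of-ratios scaling, 2 without globin and mitochondrial transcripts, 6 with weights, 6 without a trend, 1 without Vec 6 and Vec 7, 3 without Cr1l 3 and Cr1l 4 and 0 to 2 with single tumours left out. The weights were estimated by a procedure that stopped before convergence, and the cause of these shifts was not tested.

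Small differences turned sign. With median-of-ratios scaling, H4c9 was -0.0157 and Top2a -0.00722. With weights, H2ac25 was -0.00126, H4c6 0.0192, Rrm2 0.0208 and Mki67 0.036. Without Vec 6 and Vec 7, the H4 log2 ratio was 0.0141, H2bc4 0.101, H4c9 -0.0222, H4c18 0.0472, H4c6 0.0347, H2ax 0.114 and Top2a -0.195. Without Cr1l 3 and Cr1l 4, H2ac25 was -0.145, H4c9 -0.027, H4c6 0.377, Slbp 0.0755, H2az1 0.0233, H1f0 0.198, Pcna 0.0367, Rrm2 0.307, Mki67 0.37, Aurkb 0.0646 and Cdc20 0.0812. With single tumours left out, ranges that crossed 0 were -0.703 to 0.0792 for the H4 log2 ratio, -0.0626 to 0.301 for H2ac25, -0.0194 to 0.101 for H4c9, -0.66 to 0.144 for H4c6, -0.347 to 0.00656 for H2ax, -0.116 to 0.0154 for Slbp, -0.204 to 0.0681 for Rrm2, -0.248 to 0.0925 for Mki67 and -0.108 to 0.182 for Top2a. The depth of the tumours is unknown, so no limit can be set on members listed at 0.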
